A study of Mus musculus with 9 samples.

Results

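The genes described here are 10 regulators of DNA methylation, measured as RNA in 8-cell mouse embryos. They were listed by name, with no threshold on a measured value, although earlier results of these data were known. The writers were Dnmt1, Dnmt3a, Dnmt3b and Dnmt3l, the erasers were Tet1, Tet2 and Tet3, and the protectors were Uhrf1, Dppa3 and Zfp57. All 10 were among the 55335 genes listed in each library, and 9 of them were among the 13011 genes that entered the test, for which the mean had to reach 1 FPKM. Tet3, with a mean of 0.568 FPKM over the 9 libraries, did not pass this filter, and its values are given without a test.

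Zygotes obtained from ICR mice received siRNA by microinjection and were cultured to the 8-cell stage. The control embryos received nontargeting siRNA, the MFN1-KD embryos received siRNA against Mfn1, which encodes a fusion protein of the outer mitochondrial membrane, and the H3.3-KD embryos received siRNA against H3f3a and H3f3b, both of which encode histone variant H3.3. There were 3 libraries in each of the 3 groups, made by Smart-Seq2 from a pool of embryos, for which the labels give 5 to 10 embryos and the study's methods give 10. No label ties a pool to its own culture or day, so the p-values measure the spread between these pools. All embryos carried an injected siRNA and no group was uninjected. The knockdown was transient and was applied to whole embryos that still held RNA stored by the oocyte.

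In mammals DNA methylation is placed on the cytosine of CG dinucleotides. DNMT3A and DNMT3B methylate new sites, assisted by DNMT3L, which has no catalytic activity of its own, and DNMT1 copies the pattern to the daughter strand after UHRF1 has bound hemimethylated DNA. TET enzymes oxidise 5-methylcytosine, which starts its removal. After fertilization most methylation inherited from the gametes is lost during cleavage, whereas imprinted regions keep theirs. DPPA3 (also called STELLA or PGC7), a maternal protein stored in the oocyte, shields the maternal genome from oxidation, and ZFP57, a zinc finger protein, binds the methylated copy of imprinted regions and recruits TRIM28 there.

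The promoters of Dnmt1, Uhrf1 and Zfp57 are shown because these were the members whose H3.3-KD libraries all lay above all control libraries, and because the number of CG dinucleotides, the substrate of the writers, differed widely among them. RefSeq windows of 300 bases (250 before and 50 after a transcription start, GRCm38.p6) were found for 9 of the 10 members, 18 windows in all. Each window is written 5′ to 3′ on the strand of the gene, with every CG dinucleotide in capitals. The motif searched was CG, which reads the same on both strands. The first Dnmt1 window, chr9:20959839-20960138 on the minus strand, surrounds the most upstream start of the gene and holds 2 CG dinucleotides, a number reached or passed by 85.9% of all 32851 windows. The second, chr9:20952574-20952873 on the minus strand, surrounds a start further downstream and holds 33, a number reached by 8.56% of windows.
Dnmt1, upstream start: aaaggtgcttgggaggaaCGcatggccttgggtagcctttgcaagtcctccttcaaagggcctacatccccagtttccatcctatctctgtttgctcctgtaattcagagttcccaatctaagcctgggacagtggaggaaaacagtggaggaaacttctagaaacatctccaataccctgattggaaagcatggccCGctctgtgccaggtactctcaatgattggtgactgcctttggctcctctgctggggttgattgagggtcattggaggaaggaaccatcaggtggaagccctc
Dnmt1, downstream start: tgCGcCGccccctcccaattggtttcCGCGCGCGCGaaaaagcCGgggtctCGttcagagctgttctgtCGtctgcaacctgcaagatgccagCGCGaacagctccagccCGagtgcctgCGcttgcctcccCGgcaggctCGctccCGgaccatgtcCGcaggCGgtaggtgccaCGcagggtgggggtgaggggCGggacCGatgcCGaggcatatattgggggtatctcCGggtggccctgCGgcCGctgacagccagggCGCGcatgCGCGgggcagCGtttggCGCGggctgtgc
Uhrf1: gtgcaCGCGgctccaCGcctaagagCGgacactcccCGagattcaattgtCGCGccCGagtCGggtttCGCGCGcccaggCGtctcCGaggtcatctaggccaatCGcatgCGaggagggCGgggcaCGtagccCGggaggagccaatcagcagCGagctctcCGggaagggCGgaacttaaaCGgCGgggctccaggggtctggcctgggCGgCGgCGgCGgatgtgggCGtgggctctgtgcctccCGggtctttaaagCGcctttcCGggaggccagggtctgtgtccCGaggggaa
Zfp57: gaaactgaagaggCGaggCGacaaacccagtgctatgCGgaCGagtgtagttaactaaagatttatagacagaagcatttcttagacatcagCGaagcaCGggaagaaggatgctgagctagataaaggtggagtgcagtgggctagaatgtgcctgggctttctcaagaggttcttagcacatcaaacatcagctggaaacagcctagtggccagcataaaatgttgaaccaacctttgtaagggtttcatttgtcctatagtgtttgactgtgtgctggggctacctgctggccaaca
The Uhrf1 window shown, chr17:56304063-56304362 on the plus strand, also holds 33, and the Zfp57 window shown, chr17:37000913-37001212 on the plus strand, holds 6, a number reached by 56.4% of windows. These genes have further starts. The remaining window of Dnmt1 and the more upstream window of Uhrf1 hold 12 each, and the other 2 windows of Zfp57 hold 9 and 4. Over all windows 94.6% held at least 1 CG dinucleotide, and the median was 7. Among the other members the Tet2 window held 57, which only 0.152% of windows reached, and the 3 windows of Dnmt3l held 6, 4 and 3. The members whose H3.3-KD libraries lay above control, as those of 34.5% of all genes tested did, had windows both rich and poor in CG. These promoters were shown partly because of that difference, so it describes the choice. Oocytes and later cells are known to start Dnmt1 transcription at different sites, and the values per gene analysed here do not separate these starts.

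FPKM (fragments per kilobase of transcript, scaled to the library's fragments) allows levels to be compared between genes because it is divided by length. The order of the members in control was led by Dppa3, whose mean of 12699 ± 1791 FPKM (SD, n = 3) was the 11th highest of all genes listed. Dnmt3l came next, with 34.5 ± 5.25 FPKM. Tet1 and Dnmt3a followed at 17.6 ± 5.09 and 16.4 ± 4.85 FPKM, and their libraries overlapped. Zfp57, Dnmt3b, Tet2 and Dnmt1 lay between 3.77 and 5.19 FPKM, and each overlapped its neighbour in this order. Uhrf1, at 1.62 ± 0.0643 FPKM, lay below all of these without overlap, and Tet3, at 0.39 ± 0.10 FPKM, was the lowest. In MFN1-KD the second place was held by Dnmt3a and in H3.3-KD by Zfp57, although in both groups the library ranges of this member and the next overlapped.

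**Figure D1:**
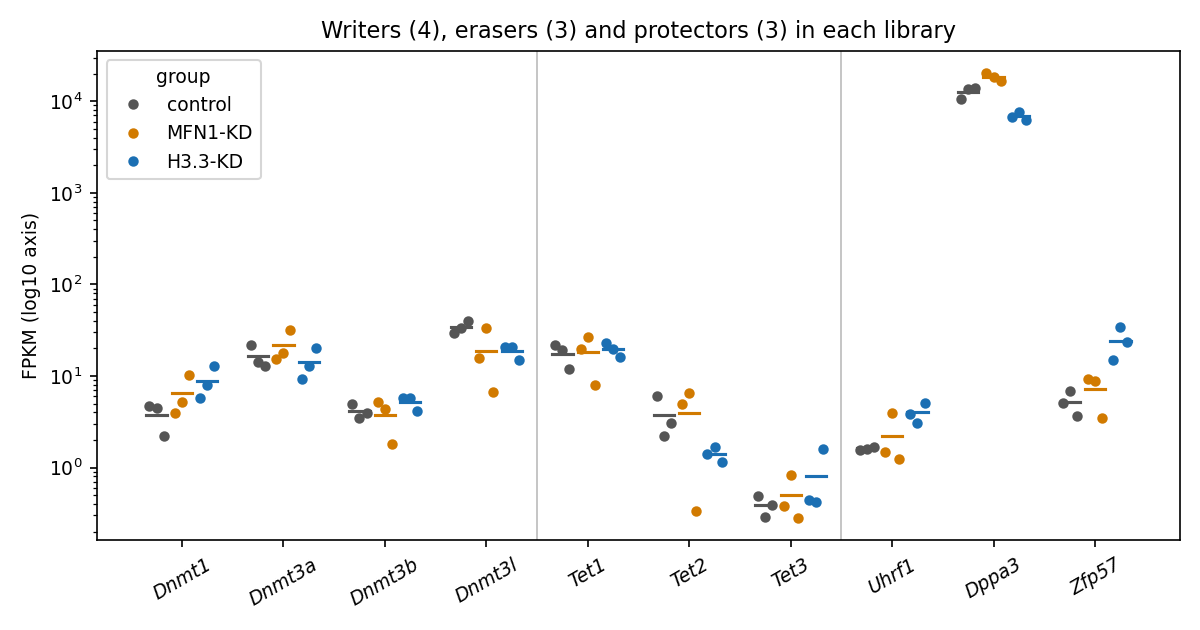
FPKM of the 10 members on a log10 axis in each of the 9 libraries (points, coloured by group), with the group mean as a bar and writers, erasers and protectors from left to right. Dppa3 lies far above the other members in every library, the H3.3-KD points of Zfp57 lie above those of both other groups, and MFN1-KD replicate 3 gives the lowest Tet2 value.

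The libraries were first checked against their labels. Mfn1 in the MFN1-KD libraries was 15.4% of the control mean (log2 fold change -2.66, limma with Benjamini-Hochberg adjustment, adjusted p = 0.0431), and H3f3a and H3f3b in the H3.3-KD libraries were 7.72% and 8.24% of it, with no overlap in either case. The fall of Mfn1 kept its direction in all 19 alternative settings. Its limma adjusted p ranged from 0.0244 to 0.158 and was under 0.05 in 9 of them. Of 10 markers of 8-cell embryos, such as Pou5f1, Tfap2c and Nanog, 0 were absent from all libraries. Their summed level was 116 to 182 FPKM in control, 178 to 186 in MFN1-KD and 333 to 737 in H3.3-KD, where 5 of the 9 tested were higher (21.8% of all genes were), Pou5f1 most (log2 fold change 4.65). After a correction for the GC content and length of transcripts within each library, 2 of the 9, Pou5f1 and Klf5, remained higher. Nanog, Gata3, Cdh1 and Krt8 overlapped with control in H3.3-KD. Cdx2 and Sox2 were at most 0.09 and 0.10 FPKM in control. In MFN1-KD Pou5f1, at 0.30 to 3.68 FPKM, lay below all control libraries, which had 5.10 to 8.90 FPKM (limma adjusted p = 0.217). Markers of RNA stored by the oocyte summed to 59.9 to 66.3, 30.9 to 64.3 and 45.2 to 132 FPKM, with 0 of 9 called in either comparison with control. An unadjusted p under 0.05 was reached by 2 and 0, against 23.2% and 42.1% of all genes. The 2 were Padi6 (12.75 to 14.66 FPKM in control, 0.33 to 4.54 FPKM in MFN1-KD) and Oosp1 (12.09 to 26.02 and 5.92 to 10.44 FPKM). Both were lower without overlap, and both were called lower with library weights. Of 10 markers of cumulus and granulosa cells, 9 stayed under 1 FPKM in every library and 4 were at 0 in all. The exception, Amhr2, reached 66.1 FPKM and was higher in H3.3-KD (limma adjusted p = 0.0327), a call lost with median-ratio scaling (0.0848), upper-quartile scaling (0.131) and the GC and length correction, where its log2 fold change went from 1.11 to 0.02. The 6 markers of the 2-cell stage summed to 4.16 to 15.7, 18.5 to 37.3 and 7.90 to 85.9 FPKM. The MFN1-KD sums lay above all control sums, and the H3.3-KD sums overlapped with them. Against control 0 of the 6 were called for either knockdown, and only Zfp352 was higher without overlap. Its control range was 0.44 to 1.73 FPKM, against 6.42 to 11.41 FPKM for MFN1-KD and 2.35 to 34.2 FPKM for H3.3-KD. Its log2 fold changes were 2.12 and 2.09 (limma adjusted p = 0.122 and 0.0510). Markers of sperm summed to at most 2.93 FPKM. MFN1-KD replicate 3 stood apart, with 15577 genes above 0 FPKM against 19250 to 24820 in the other libraries. It had the lowest value of all 9 libraries for 7 of the 10 members and for 33.5% of all genes tested, and the highest value for Dnmt3a. The part of stage, of other cells and of this library in the results below was not tested, and in these bulk pools fewer cells of a kind and less RNA per cell cannot be told apart.

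In H3.3-KD embryos Zfp57 rose to 4.67 times its control level and Dppa3 fell to 54.2% of it, and these protectors were the only members of the 9 tested that passed an adjusted p of 0.05. Over all genes 21.8% were called higher and 9.12% lower, so 1 member in each direction is near this background. Dnmt1 and Uhrf1 also lay above control in every H3.3-KD library, and Dnmt3l and Tet2 below it, but these differences did not pass the adjusted test. Differences are given as log2 fold changes on the log2(FPKM + 1) scale, which understates changes of members with low FPKM, from a limma model fitted to all 9 libraries. In this comparison the median over all genes was 0.26, and it moved to -0.00 after median-ratio scaling. The share of all genes called also moved with the scaling, to 15.9% higher and 13.7% lower with median ratios, 14.5% and 15.1% with upper quartiles, and 11.6% and 12.2% with the GC and length correction.

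Zfp57 (ENSMUSG00000036036.15, chr17:37001163-37010635, plus strand) had 5.08, 6.87 and 3.63 FPKM in the control libraries. The H3.3-KD libraries had 14.97, 34.29 and 23.55 FPKM. All 3 were more than 2-fold above the highest control library. The log2 fold change was 1.99 ± 0.43 (SE), with an adjusted p of 0.00618 (limma, Benjamini-Hochberg), and 1.73 relative to the median of all genes. This rise kept its direction and an adjusted p under 0.05 in all 19 alternative settings of the analysis, where the adjusted p ranged from 3.50e-04 to 0.0334. H3.3-KD replicate 2 was the highest of the 3, and without it the log2 fold change was 1.71.

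Dppa3 (ENSMUSG00000046323.8, chr6:122626410-122630272, plus strand) had 10642, 13542 and 13913 FPKM in control. In the H3.3-KD libraries it had 6725, 7699 and 6244 FPKM. The groups did not overlap, and the range within each was narrower than the difference between their means. This was a log2 fold change of -0.88 ± 0.16 (SE), with an adjusted p of 0.0025 (limma, Benjamini-Hochberg). As a share of all FPKM in a library, Dppa3 took 0.956% to 1.05% in control and 0.669% to 0.795% in H3.3-KD. It nevertheless kept a high place in the H3.3-KD libraries, where it ranked 6th, 4th and 10th of all genes, against 9th, 11th and 11th in control. Among the 100 genes most abundant in control, Dppa3 lay near the middle, since 51 fell more than Dppa3 and 48 fell less or rose, with a median log2 fold change of -0.90. With the GC and length correction, the log2 fold change of Dppa3 was -0.53 and the adjusted p 0.0508, the only alternative of 19 in which it was above 0.05.

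Dppa3 has an annotated pseudogene, Dppa3-ps, and reads of such similar sequence may be divided between them, so both levels are uncertain to that extent. Dppa3-ps had 52.2 to 59.4 FPKM in control, 64.1 to 93.6 in MFN1-KD and 39.9 to 45.1 in H3.3-KD, so its groups were ordered as those of Dppa3. Dppa3 exceeded it 204 to 254 times in control, 202 to 261 times in MFN1-KD and 138 to 171 times in H3.3-KD.

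Uhrf1 (chr17:56303321-56323486, plus strand) had 1.57, 1.59 and 1.69 FPKM in control, a very narrow range. The H3.3-KD libraries had 3.86, 3.10 and 5.10 FPKM. All lay above control, with a ratio of means of 2.49, although with 3 libraries against 3 the exact permutation test cannot give a p below 0.1. Uhrf1 thus had a log2 fold change of 0.92 ± 0.37 (SE), with an adjusted p of 0.0845 (limma, Benjamini-Hochberg). Over the alternatives the adjusted p of Uhrf1 ranged from 0.0193 to 0.998, and with the trends over GC content and length removed the log2 fold change was 0.00.

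Among the writers, Dnmt1 (chr9:20907209-20959888, minus strand), the maintenance enzyme, had 4.66, 4.45 and 2.19 FPKM in control. It had 5.77, 8.05 and 12.80 FPKM in H3.3-KD, a ratio of means of 2.36. The groups did not overlap, but the H3.3-KD libraries spread more widely than the distance between the group means. The log2 fold change was 1.03 ± 0.43 (SE), with an adjusted p of 0.0899 (limma, Benjamini-Hochberg). It was 0.26 with the trends over GC content and length removed, and the adjusted p was 0.044 without MFN1-KD replicate 3, a library outside this comparison that enters the shared estimate of the spread. Dnmt1 and Uhrf1, which act together at replicated DNA, were thus both higher in these libraries without passing the adjusted test.

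Dnmt3l (chr10:78041947-78063622, plus strand), the cofactor that the oocyte needs to methylate its genome, went the other way. It had 29.71, 33.57 and 40.10 FPKM in control. It had 20.49, 20.71 and 14.94 FPKM in H3.3-KD, all below control, and the mean was 54.3% of the control mean. The log2 fold change was -0.85 ± 0.46 (SE), with an adjusted p of 0.19 (limma, Benjamini-Hochberg), and the adjusted p was under 0.05 in 4 of the 19 alternatives, the smallest being 0.0196. The fit of only the 6 libraries compared, which was among these 4, left out the MFN1-KD libraries, in which Dnmt3l varied most.

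The de novo enzymes did not separate the groups. Dnmt3a (chr12:3806007-3914443, plus strand) had 21.90, 14.37 and 12.83 FPKM in control and 9.23, 12.89 and 20.09 FPKM in H3.3-KD. Dnmt3b (chr2:153649450-153687730, plus strand) had 4.90, 3.50 and 3.90 FPKM in control and 5.70, 5.78 and 4.17 FPKM in H3.3-KD. For both the libraries overlapped, and the log2 fold changes were -0.23 ± 0.38 and 0.28 ± 0.36 (SE). The direction for Dnmt3b was not stable, since it was -0.07 after upper-quartile scaling and -0.53 with the trends over GC content and length removed. Beside Dnmt3b lies Dnmt3c, a rodent duplicate of it that acts on young retrotransposons in male germ cells, with which reads may be shared. Dnmt3c had 0.38 to 0.77 FPKM in control and 2.11 to 7.19 FPKM in H3.3-KD (log2 fold change 1.54 ± 0.44, SE, limma adjusted p = 0.0237, and from 0.0024 to 0.209 over the alternatives). The antisense gene Dnmt3bos, whose reads cannot be told apart from those of Dnmt3b where the genes overlap if the counting ignored strand, had at most 2.89 FPKM. Its ranges were 0.93 to 2.89 FPKM in control, 0 to 0.52 FPKM in MFN1-KD and 0.83 to 1.84 FPKM in H3.3-KD. In MFN1-KD it lay below control without overlap (log2 fold change -1.26, limma adjusted p = 0.104). Antisense Dnmt3aos was at 0 in all libraries.

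Of the erasers, Tet2 (chr3:133463679-133545139, minus strand) had 6.07, 2.20 and 3.06 FPKM in control. In H3.3-KD it had 1.41, 1.70 and 1.15 FPKM, all below control, and the mean was 37.6% of the control mean. Its log2 fold change was -0.90 ± 0.60 (SE), with an adjusted p of 0.281 (limma, Benjamini-Hochberg), and Tet2 passed in 0 of 18 alternatives. The smallest adjusted p, 0.0603, came without MFN1-KD replicate 3, a library outside this comparison that enters the shared estimate of the spread. Tet1 (chr10:62804570-62908996, minus strand), at 21.64, 19.23 and 11.87 FPKM in control and 22.79, 19.65 and 16.31 FPKM in H3.3-KD, overlapped throughout, and the sign of its log2 fold change of 0.18 turned under both scalings. Tet3 (chr6:83362373-83459084, minus strand), the TET enzyme that oocytes supply to the zygote, was at 0.49, 0.29 and 0.39 FPKM in control and 0.44, 0.42 and 1.58 FPKM in H3.3-KD. Tet3 stayed under 1 FPKM in every library but H3.3-KD replicate 3.

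Counted without a model, 3 members lay above control in every H3.3-KD library (Dnmt1, Uhrf1 and Zfp57) and 3 below (Dnmt3l, Tet2 and Dppa3), where 34.5% and 18.9% of all genes tested did so. The thresholds of the study's methods, a change over 2-fold with p under 0.05 before adjustment, were applied here to limma values on the log2(FPKM + 1) scale. The study applied them to DESeq2 results. Dnmt1 and Zfp57 were then higher and 0 members were lower, against 23.9% and 9.39% of all genes. Uhrf1, with a ratio of means of 2.49, fell short at a log2 fold change of 0.92 (limma unadjusted p = 0.0318). An unadjusted p under 0.05 was reached by 4 of the 9 members (44.4%) and by 42.1% of all genes. The median log2 fold change of the members was 0.18, below the 0.26 of all genes. Summed over the 4 writers the level was 55.9 to 61.2 FPKM in control and 41.2 to 52.0 FPKM in H3.3-KD, without overlap. Most of this difference lay in Dnmt3l, with a mean of 34.5 FPKM in control against 18.7 FPKM in H3.3-KD, while the means of Dnmt1 and Dnmt3b were higher in H3.3-KD. The erasers summed to 15.3 to 28.2 FPKM in control and 19.0 to 24.6 FPKM in H3.3-KD, with full overlap.

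**Figure D2:**
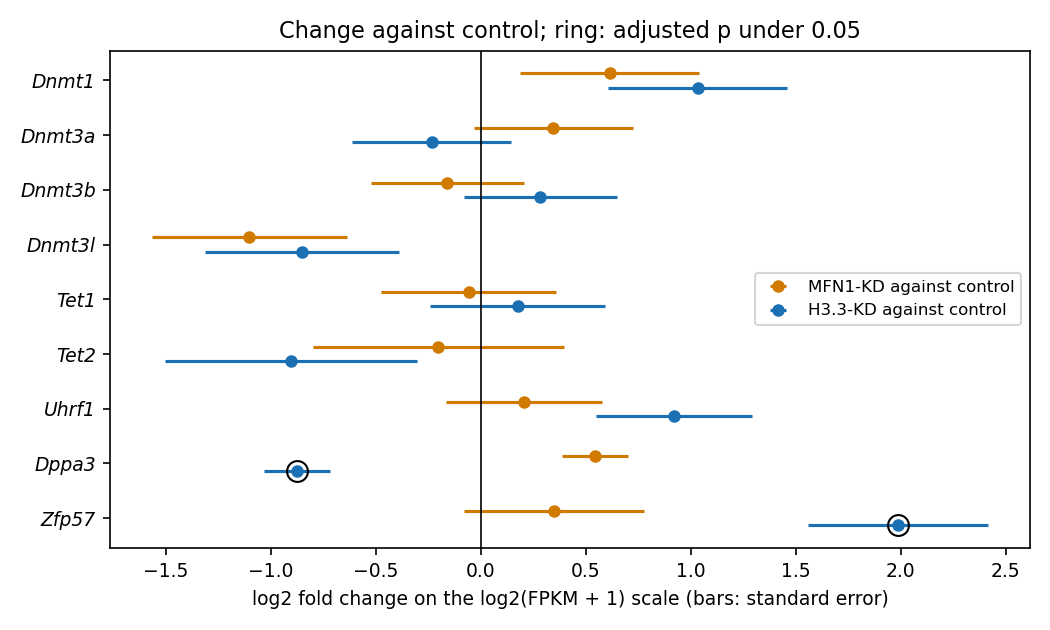
Log2 fold change of the 9 tested members against control on the log2(FPKM + 1) scale, for MFN1-KD and H3.3-KD (points, with bars of 1 standard error from limma); rings mark an adjusted p under 0.05. Only Dppa3 (-0.88) and Zfp57 (1.99) in H3.3-KD are ringed, and both comparisons share the 3 control libraries.

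In MFN1-KD embryos 0 of the 9 members tested passed the adjusted test in limma, while 2 (22.2%), Dppa3 and Dnmt3l, had an unadjusted p under 0.05. Over all genes 1.15% were called higher and 2.2% lower, and 23.2% had an unadjusted p under 0.05. The median log2 fold change of the members was 0.21 and that of all genes -0.08. This comparison and the one above share their control libraries, so their values are given side by side and no likeness between them is measured.

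Dppa3 in the MFN1-KD libraries had 20351, 18275 and 16697 FPKM. All 3 lay above every control library, and the mean was 145% of the control mean, opposite to the direction in H3.3-KD. Dppa3 took 1.39% to 1.73% of all FPKM in these libraries. In the model the log2 fold change was 0.54 ± 0.16 (SE), with an unadjusted p of 0.00579 and an adjusted p of 0.0825 (limma, Benjamini-Hochberg). The adjusted p ranged from 0.0352 to 0.21 over the alternatives and was under 0.05 in 2 of 19. Dppa3 was the only member whose MFN1-KD libraries did not overlap with control, where 11.4% of all genes lay above and 16.8% below. Of the 100 genes most abundant in control, 6 had a larger log2 fold change than Dppa3, and their median was -0.17.

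Dnmt3l in MFN1-KD had 15.61, 33.69 and 6.65 FPKM. Replicates 1 and 3 lay below control and replicate 2 within it. The log2 fold change of -1.10 ± 0.46 (SE) had an unadjusted p of 0.0376 and an adjusted p of 0.186 (limma, Benjamini-Hochberg). Dnmt3l was the only member past the rule of a change over 2-fold with p under 0.05 before adjustment, which called 5.02% of all genes higher and 9.05% lower. Without MFN1-KD replicate 2 the log2 fold change was -1.64 with an adjusted p of 0.0428, and without replicate 3 it was -0.55, so its size rests on which of these libraries is included. It was -0.62 with the GC and length correction and -0.86 with library weights, and was then not past 2-fold. The ratio of Dnmt3l to the enzyme it assists, Dnmt3a, was 1.36 to 3.13 in control, 0.209 to 1.91 in MFN1-KD and 0.744 to 2.22 in H3.3-KD.

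The other members overlapped with control. Dnmt1 had 3.96, 5.26 and 10.35 FPKM in MFN1-KD, and replicate 3 alone lay far above control. Without replicate 3 its log2 fold change moved from 0.61 to 0.27. Dnmt3a had 15.35, 17.66 and 31.79 FPKM, again with replicate 3 far above the others, and Zfp57 had 9.34, 8.93 and 3.46 FPKM, with replicate 3 the lowest.

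Uhrf1 had 1.48, 3.95 and 1.24 FPKM, of which only replicate 2 was above control. Dnmt3b had 5.19, 4.33 and 1.83 FPKM and Tet1 had 19.93, 26.86 and 7.98 FPKM. Tet2 had 5.00, 6.50 and 0.34 FPKM. For these last 3 genes replicate 3 was the lowest of all 9 libraries, and without it the log2 fold changes turned from -0.16 to 0.18 for Dnmt3b, from -0.06 to 0.42 for Tet1 and from -0.20 to 0.57 for Tet2. Tet3 was at 0.38, 0.84 and 0.28 FPKM. The erasers together summed to 25.3, 34.2 and 8.60 FPKM in the MFN1-KD libraries, the widest range of any group.

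The 2 knockdowns were also compared directly, in the same fit, so that the control libraries entered only the shared estimate of the spread. Dppa3 was lower in H3.3-KD than in MFN1-KD, at 37.4% of its level (log2 fold change -1.42 ± 0.16, SE, limma adjusted p = 1.39e-04), and this held in all 19 alternatives. Zfp57 was higher, with a ratio of means of 3.35 (log2 fold change 1.64 ± 0.43, SE, limma adjusted p = 0.0124), and it remained under 0.05 in 18 of 19 alternatives, with 0.056 when H3.3-KD replicate 2 was left out. The share of all genes called was 27.6% higher and 11% lower. The other 7 tested members did not pass, with adjusted p-values from 0.152 for Uhrf1 to 0.70 for Dnmt3l, and the median of all genes was 0.39. Without MFN1-KD replicate 3, Tet2 was also lower in H3.3-KD (log2 fold change -1.48, limma adjusted p = 0.0135).

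**Figure D3:**
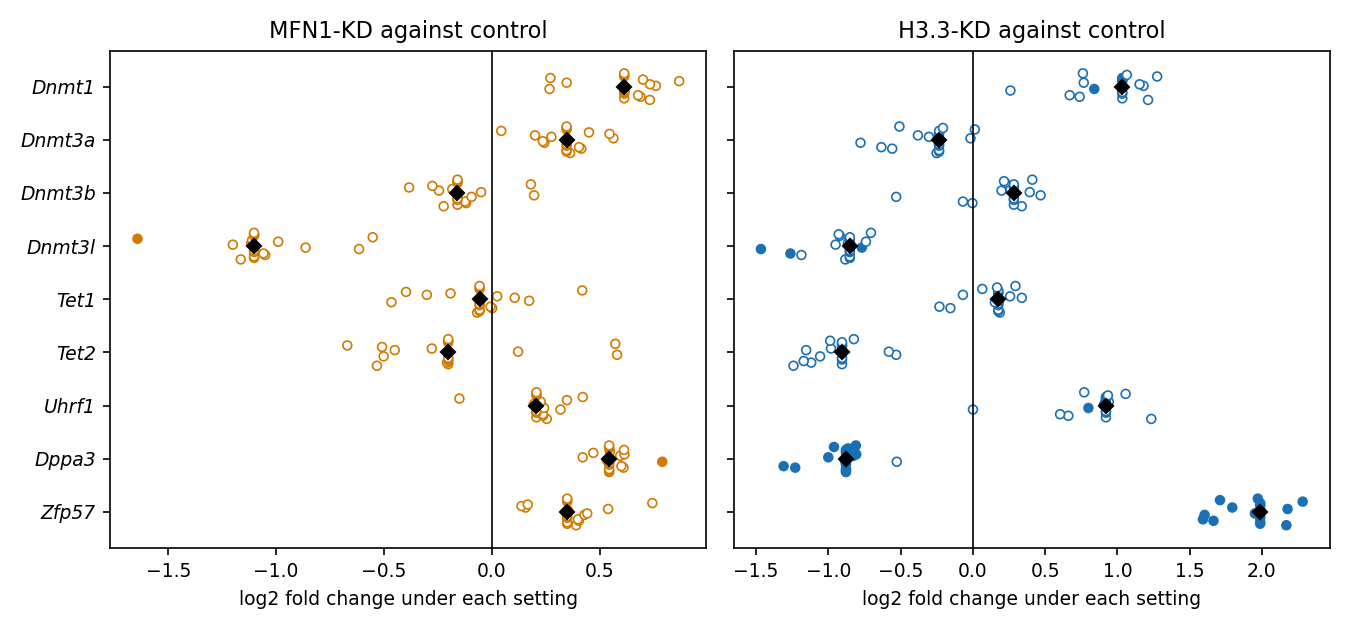
Log2 fold change of each tested member under each alternative setting (circles, filled where the adjusted p was under 0.05) and as reported (black diamond), for MFN1-KD and H3.3-KD against control. Zfp57 in H3.3-KD stays between 1.59 and 2.28, whereas the circles of Tet1, Tet2, Dnmt3b and Uhrf1 in the left panel and of Tet1, Dnmt3a and Dnmt3b in the right panel lie on both sides of 0.

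A wider list of 56 genes that work with the members was examined in the same fit, and 48 of them were tested. In MFN1-KD 0 of the 48 passed the adjusted test in limma and 11 (22.9%) had an unadjusted p under 0.05, near the 23.2% of all genes. By direction, 11 of the 48 had all MFN1-KD libraries above all control libraries and 1 had all below. Over all genes these shares were 11.4% and 16.8%. The median log2 fold change of the 48 was 0.14, against -0.08 for all genes. In H3.3-KD 12 were higher and 1 was lower, with 20 (41.7%, against 42.1% of all genes) at an unadjusted p under 0.05, and their median log2 fold change of 0.47 was 0.21 above that of all genes. With 25% of the tested genes higher and 2.08% lower, against 21.8% and 9.12% of all genes, the share that rose was near the background. The split depended on the scaling, with 9 higher and 4 lower after median-ratio scaling, 6 and 5 after upper-quartile scaling, and 3 and 7 with the GC and length correction.

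The genes listed under methyl donor supply, which act in the metabolism of S-adenosylmethionine and folate, had 5 of 11 higher in H3.3-KD. This was 45.5%, against 21.8% of all genes, and the median log2 fold change was 1.05. Mtr, which encodes methionine synthase, had 1.13 to 2.90 FPKM in control and 8.63 to 12.08 FPKM in H3.3-KD (log2 fold change 2.07, limma adjusted p = 0.00366). Its reactivating enzyme Mtrr rose with a log2 fold change of 1.31, and the folate enzymes Shmt2, Mthfd1 and Shmt1 rose with 1.64, 1.10 and 1.05. With the trends over GC content and length removed, Mtr kept a log2 fold change of 1.85 and an adjusted p of 0.00628, whereas Mtrr, Shmt2, Mthfd1 and Shmt1 had 0.70, 0.54, 0.25 and 0.42, with adjusted p-values between 0.104 and 0.479. The call of Shmt1 was also lost with both scalings, and those of Shmt2 and Mthfd1 with upper-quartile scaling. Of the 11, median-ratio scaling gave 4 higher and 1 lower, upper-quartile scaling 2 and 1, and the trends removed 1 and 2. Amd1, at 275.41 to 343.71 FPKM in control and 182.45 to 256.69 FPKM in H3.3-KD, lay below control without overlap.

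Of the genes listed as methyl-CpG readers, 2 of the 4 tested were higher in H3.3-KD. Mbd3, a subunit of the NuRD complex that in mammals does not itself prefer methylated CG, had 19.88 to 24.50 FPKM in control and 73.37 to 106.90 FPKM in H3.3-KD (log2 fold change 2.03, limma adjusted p = 3.86e-04), and Mbd1 rose with a log2 fold change of 1.75. Neither passed with the trends over GC content and length removed, with values of 0.72 and 1.10. Among the 11 tested genes listed under repair of oxidised bases, not all of which belong to base excision repair, Ung and Xrcc1 were higher. This was 18.2%, against 21.8% of all genes. Ung, a uracil DNA glycosylase, had 20.91 to 46.09 FPKM in control and 162.02 to 203.55 FPKM in H3.3-KD (log2 fold change 2.42, limma adjusted p = 4.96e-04), and kept 1.82 with the trends removed. Xrcc1 turned from 1.15 to -0.16 under that correction, and its call was lost with upper-quartile scaling. Tdg, the glycosylase best known for removing the oxidised bases, had a mean below 1 FPKM and was not tested.

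The partners of imprint protection, which include Trim28, Setdb1 and Ctcf, had 1 of 6 higher in H3.3-KD. This was Ctcf, an insulator protein, with 19.38 to 27.54 FPKM in control and 54.09 to 76.01 FPKM in H3.3-KD (log2 fold change 1.51, limma adjusted p = 0.00322). Trim28 itself, at 327.79 to 522.75 FPKM in control and 510.45 to 645.59 FPKM in H3.3-KD, overlapped, and its log2 fold change turned from 0.41 to -1.002 (limma adjusted p = 0.00403) with the trends removed. Among the partners of maintenance, 1 of 6 was higher, Cdca7, a cofactor of the remodeller HELLS, with 11.03 to 18.73 FPKM in control and 28.39 to 35.82 FPKM in H3.3-KD (log2 fold change 1.05). This call was lost with median-ratio scaling (0.71, limma adjusted p = 0.0848), upper-quartile scaling (0.64, 0.133) and the trends removed (0.47, 0.247). Without overlap, 2 of the 6 lay above control and 2 below (34.5% and 18.9% of all genes). Those below were Pcna (91.75 to 110.38 FPKM in control, 53.57 to 73.26 in H3.3-KD) and Lig1 (10.54 to 16.49 and 4.52 to 8.13). Their log2 fold changes were -0.58 and -0.92 (limma adjusted p = 0.0649 and 0.0510). Median-ratio and upper-quartile scaling each called 0 of the 6 higher and 2 lower, and the trends removed 0 and 1. Cdca7, Pcna and Lig1 fall outside the rule for named genes and were named after their values were seen.

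The histone enzymes whose marks direct DNMT3 enzymes moved both ways. Setd2, the enzyme that trimethylates H3K36, was the only gene of the wider list called lower in H3.3-KD, from 70.02 to 126.70 FPKM in control to 38.82 to 52.22 FPKM (log2 fold change -1.01, limma adjusted p = 0.0134), and it kept -1.09 with the trends removed. Ehmt1, an H3K9 methyltransferase, rose with a log2 fold change of 1.08, a call lost under both scalings and under that correction, where it was 0.51. Of the 4 TET cofactors and partners tested, 0 were called in limma and 1 had an unadjusted p under 0.05. In the direct comparison of H3.3-KD with MFN1-KD, 14 of the 48 genes (29.2%, against 27.6% of all genes) were higher and 2 (4.17%, against 11%) lower, which became 9 higher and 12 lower after median-ratio scaling.

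**Figure D4:**
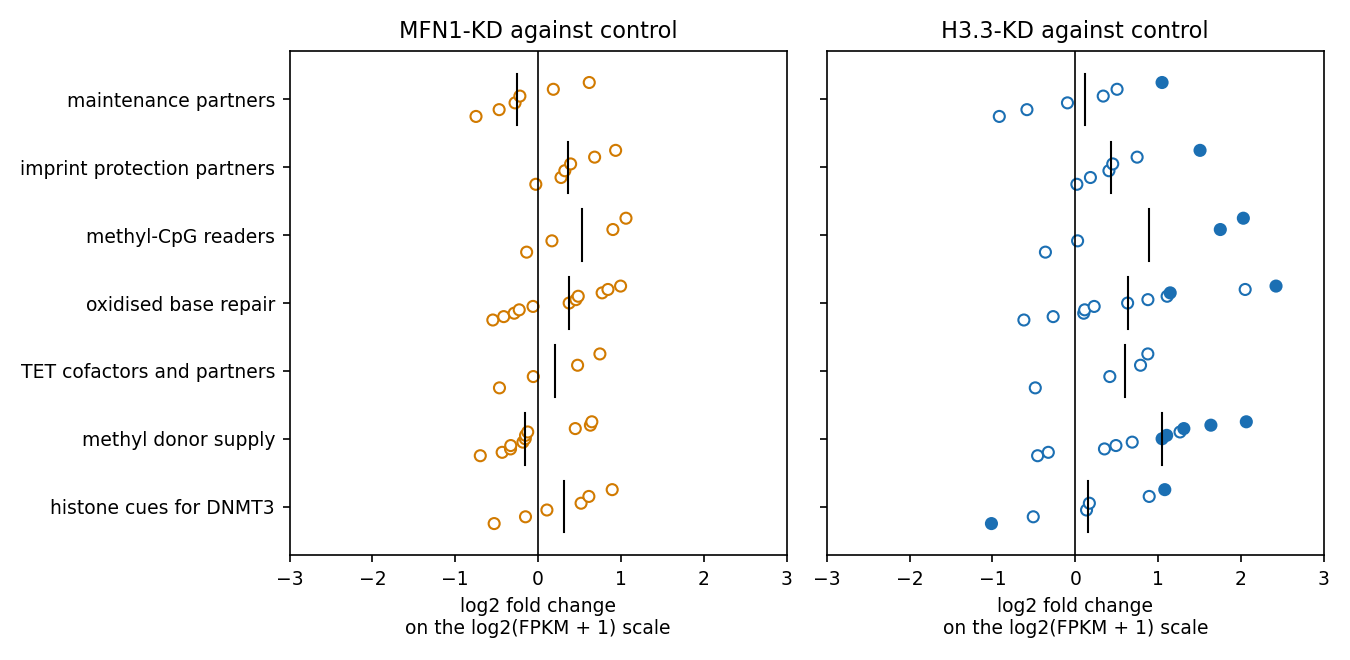
Log2 fold change of the 48 tested genes of the wider list against control, by role, in MFN1-KD (left) and H3.3-KD (right); filled circles have an adjusted p under 0.05 and vertical ticks are the median of each role. MFN1-KD has no filled circle, whereas for H3.3-KD 12 filled circles lie above 0 and 1, Setd2, below.

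The genes whose level was most like that of a member were sought among those whose mean reached 10 FPKM, by Pearson's r of log2(FPKM + 1) over the 9 libraries. These libraries form 3 groups, so r also reflects differences between groups, and it is given as a description. For Dppa3 the closest were Gm10145, a processed pseudogene, at 0.987 and Nsmce2 at 0.985, and for Zfp57 the long noncoding RNA Gm4316 at 0.98 and Ldha at 0.97. The closest to Dnmt1 were Kctd18 (0.948) and Crk (0.938), and to Uhrf1 they were Tpx2 (0.95) and Zfp639 (0.939). Dnmt3l was closest to Nuf2 (0.983) and the small nucleolar RNA Gm23946 (0.959), Dnmt3a to Tsc22d2 (0.93) and Gm10553 (0.929), and Dnmt3b to Anp32a (0.968) and Elf2 (0.957). Tet1 was closest to BC055324 (0.947) and Knl1 (0.944), and Tet2 to Tprkb (0.967) and Pik3c2a (0.936).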

How the data were processed

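RNA from pools of 8-cell embryos was measured in 9 libraries, 3 in each of control, MFN1-KD and H3.3-KD, grouped by the titles of the samples. The authors made cDNA by Smart-Seq2 with an oligo-dT primer, which measures polyadenylated RNA. Per the labels, the submitters' processing notes name cutadapt 1.16, STAR and mm10. The deposited values are FPKM per gene, rounded to 2 decimals. The program that made FPKM, its annotation and its strand setting are not given in the sources used here. No read counts were used, which leaves library depth unknown. Tests for counts were therefore not run, and no interval from counts is given. Columns of comparisons made by the authors were not used.

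A gene entered the test when its mean in the 9 libraries reached 1 FPKM (13011 of 55335 did). All 9 libraries went into a single linear model of log2(FPKM + 1), with no covariate, in limma 3.58.1 (trend and robust options) under R 4.3.3, and p-values were adjusted by the Benjamini-Hochberg method over all genes tested. A gene was called at an adjusted p under 0.05. The rule of the study's methods, a change over 2-fold with p under 0.05 before adjustment, was counted beside it. The procedure was tested on simulated data. For single values the exact permutation test (two-sided) was used, whose smallest p with 3 libraries against 3 is 0.1.

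The 10 members were all named whatever their result. From the wider list the rule took up to 12 genes with the smallest p among those called in each comparison with control. It also took the 2 genes most like each tested member, annotated genes that overlap or copy a member, and the siRNA targets. Tdg, Trim28, Setdb1, Cdca7, Pcna, Lig1, Amd1 and the stage markers named fall outside this rule and were named after their values were seen. The members and lists were chosen with earlier results of these data known.

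Positions, GC content and transcript length were taken from GENCODE M21 (GRCm38, the assembly of mm10), which holds 53647 of the 55335 symbols, and 12816 of the genes tested had a GC content and a length. Promoter windows were taken from RefSeq (GRCm38.p6), which gave 1 or more windows for 9 of the 10 members, and Dppa3 was without one. The alternatives were a pseudocount of 0.1, no filter, a minimum mean of 10 FPKM, median-ratio and upper-quartile scaling, a fit of the 6 libraries compared alone, a block for the replicate number, removal of trends over GC content and length within each library (splines with 5 degrees of freedom), library weights, no robust option, and each library left out in turn. The ChIP and methylation data of the study were not analysed here.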

Additional observations from a re-analysis of the deposited data

How the results depend on the processing

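The 27 member results (9 tested members in 3 comparisons) gave 501 values over 19 alternative settings, of which 455 kept their direction and their side of the threshold, 15 passed it only under the alternative, 2 no longer passed it and 29 turned in direction. In MFN1-KD, 0 members and 0 genes of the wider list were called as reported, 1 and 1 with the trends over GC content and length removed, and 1 and 3 with library weights. Of all genes, 0.882% were called higher and 1.47% lower with the trends removed, and 4.38% and 6.33% with library weights. Leaving out each library gave 0 to 1 members. In H3.3-KD, 2 members and 13 genes of the wider list were called as reported, 4 members when only the 6 libraries compared were fitted, and 5 members and 30 genes with library weights. With library weights 36.4% of all genes were called higher and 17.3% lower, so 3 members higher and 2 lower are near this background. Leaving out each library gave 2 to 4 members and 7 to 21 genes, with 7 without control replicate 2 and 21 without MFN1-KD replicate 3. The direct comparison gave 2 members as reported and 1 to 3 when each library was left out. For the fits of 6 libraries, with a library left out or with the replicate block, the share of all genes called is not given. Those counts are therefore not read against a background. Of the calls, Dppa3 in H3.3-KD missed the threshold (adjusted p = 0.0508) with the trends removed, and Zfp57 in the direct comparison missed it without H3.3-KD replicate 2. The cause was not tested in any of these cases.

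All results that turned in direction were uncalled. In MFN1-KD the log2 fold change became 0.20 for Dnmt3b, 0.17 for Tet1 and 0.58 for Tet2 with library weights, and 0.00 (0.00155) for Tet1 with median-ratio scaling. Leaving out each library gave -0.38 to 0.18 for Dnmt3b, -0.40 to 0.42 for Tet1, -0.67 to 0.57 for Tet2 and -0.15 to 0.42 for Uhrf1. In H3.3-KD it became -0.00 (-0.00294), -0.068 and -0.53 for Dnmt3b with median-ratio scaling, upper-quartile scaling and the trends removed, and -0.16 and -0.23 for Tet1 with the 2 scalings. Leaving out each library gave -0.51 to 0.014 for Dnmt3a and -0.068 to 0.34 for Tet1. In the direct comparison Dnmt1 became -0.0077 with upper-quartile scaling and -0.36 with the trends removed, Dnmt3l became -0.13, -0.20 and -0.85 with the 2 scalings and the trends removed, Tet1 became -0.16 and -0.22 with the 2 scalings, and Dnmt3b and Uhrf1 became -0.44 and -0.32 with the trends removed. Leaving out each library gave -0.30 to 0.79 for Dnmt3l and -0.24 to 0.57 for Tet1 there, both lowest without MFN1-KD replicate 3.

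Whether the replicate numbers pair the samples cannot be decided from these values, with 3 libraries in each group. The correlation of deviations between same-numbered libraries ranged from -0.05 to 0.16, and it was over 0.1 in 2 of 9 pairs. Between differently numbered libraries it ranged from -0.12 to 0.072. With the replicate block 0, 2 and 2 members and 0, 14 and 15 genes of the wider list were called in MFN1-KD, in H3.3-KD and in the direct comparison, and no call of a member changed. The unknown depth limits the members of low FPKM, Tet3 and Uhrf1 most.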
